A study of Rattus norvegicus with 12 samples.

Results

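The genes described here encode subunits of oxidative phosphorylation: NADH dehydrogenase (complex I), the cytochrome bc1 complex (complex III), cytochrome c oxidase (complex IV) and ATP synthase (complex V). They were chosen by symbol alone, as every gene beginning with Ndufa, Ndufb, Ndufc, Ndufs, Ndufv, Uqcr or Atp5, or with Cox and a subunit number and letter, that had at least 1 transcript cluster (the probes of 1 gene, summarized to 1 value) carrying its symbol and no other. This gave 74 genes of 14300 with such a cluster. Assigned by symbol, complex I contributed 34 genes, complex III 7, complex IV 14 and complex V 16. In addition, 3 assembly factors of complex I (Ndufaf1, Ndufaf3 and Ndufaf4) shared the symbol pattern. Genes with several clusters, 10 of the 74, were represented by the brightest. The symbols Ndufs6-ps1 and Cox6c-ps1 are those of pseudogenes, and their probe sequences were not examined. Cox6c-ps1 was dim, with means of 5.39 to 5.47 (log2) in the 3 cartilage layers, against 11.16 to 11.87 for Cox6c. Ndufs6 itself is not among the 74 genes, so whether the Ndufs6-ps1 cluster also reads Ndufs6 cannot be told here.

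Transcripts were profiled with 12 Rat Gene 1.0 ST microarrays (Affymetrix), 4 for each of 3 cartilage layers cut with a razor blade from eosin-stained sections of the proximal tibial epiphysis of untreated Sprague-Dawley rats at 10 days of age. Articular cartilage gave the superficial zone (SZ) and, beneath it, the intermediate/deep zone (IDZ), while the growth plate gave the resting zone (RZ), and a strip of cartilage was left out between neighbouring zones. An SZ sample held 2 tissues of 1 animal (animals 5, 6, 7 and 8 for replicates 1 to 4), and an IDZ or RZ sample pooled 4 tissues of 2 animals (1 and 2, 3 and 4, 5 and 6, 7 and 8), so that an IDZ and an RZ sample with 1 number share their rats, and the rats of all SZ samples also gave IDZ and RZ. The question put to these data here is how transcripts of the respiratory chain were distributed over the 3 zones.

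The respiratory chain passes electrons from NADH and succinate to oxygen through complexes I to IV, and ATP synthase uses the resulting proton gradient to make ATP. Most subunits are encoded in the nucleus, and a small core is encoded by mitochondrial DNA. Cartilage has no blood vessels of its own, and chondrocytes are known for a low oxygen supply and for making much of their ATP by glycolysis. The zones differ in their distance from the joint cavity and from the vessels of the forming secondary ossification center. No cluster with the symbol of a mitochondrially encoded subunit was found among the annotated clusters, nor one for Cox6b1, Cox7a1, Cox7b2 or Ndufa4l2 alone, and these genes were not analysed here.

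The tissue labels were checked on marker genes. The mean of 12 chondrocyte markers lay between 10.95 and 12.15 on all 12 arrays (log2), and Prg4, the lubricin of the joint surface, averaged 12.78 ± 0.19 in SZ, 10.31 ± 0.97 in IDZ and 5.68 ± 0.50 in RZ (SD, n = 4 arrays each). SZ replicate 4 stood apart from the other arrays. Its interquartile range over all clusters was 2.24, against 2.72 to 2.91 on the other SZ arrays, 2.50 to 2.59 in IDZ and 2.57 to 2.73 in RZ, and the mean level of the 74 genes on it was 8.87, against 9.24 to 9.27 on the other SZ arrays. The counts of genes are therefore also given without this array, for the subunit genes, for each complex and for the related gene lists. In tissue samples of this kind, fewer cells of one type and less RNA per cell cannot be told apart.

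The subunit genes are known for shared control by a few transcription factors, and promoter sequences were looked up to show what these genes have in common beside their names. Promoters of 65 of the 74 genes were found in RefSeq (GRCr8), each running from 250 bases before to 50 bases after the start of the gene. The core letters bound by nuclear respiratory factor 1 (NRF1, GCATGCG), GA-binding protein (GABP, CCGGAAG) and YY1 (ATGGCGG) were looked for on either strand. NRF1 letters were found in 11 of the 65 promoters (16.9%), against 3.33% of all 33469 promoters in the table. GABP letters were found in 18 (27.7%, against 8.75%) and YY1 letters in 13 (20.0%, against 4.80%). At least 1 of the 3 was present in 31 promoters (47.7%, against 15.1%). The letters were present in 14 of 25 promoters of genes that passed the test between any zones and in 17 of 40 of those that did not pass. These are matches of letters and were not tested as sites. Among 7 promoters found for the genes higher in both SZ and RZ than in IDZ, 4 held a match. Of these, 3 are printed as examples, 5′ to 3′ on the strand of the gene, with the matches in capitals, and no result rests on them. Ndufa4 (chr4:40975510-40975809, minus strand) held NRF1 letters on the other strand, 231 to 225 bases before the start. Ndufa9 (chr4:161374121-161374420, minus strand) held YY1 letters from base 14 to base 20 of the gene. Atp5f1b (chr7:1099808-1100107, plus strand) held YY1 letters 58 to 52 bases before the start and, on the other strand, from base 18 to base 24 of the gene.
Ndufa4: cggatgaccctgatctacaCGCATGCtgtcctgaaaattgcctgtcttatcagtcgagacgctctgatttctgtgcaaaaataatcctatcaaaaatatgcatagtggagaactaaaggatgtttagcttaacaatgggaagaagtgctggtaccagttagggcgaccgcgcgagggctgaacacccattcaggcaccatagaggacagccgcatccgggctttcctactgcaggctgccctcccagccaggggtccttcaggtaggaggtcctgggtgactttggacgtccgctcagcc
Ndufa9: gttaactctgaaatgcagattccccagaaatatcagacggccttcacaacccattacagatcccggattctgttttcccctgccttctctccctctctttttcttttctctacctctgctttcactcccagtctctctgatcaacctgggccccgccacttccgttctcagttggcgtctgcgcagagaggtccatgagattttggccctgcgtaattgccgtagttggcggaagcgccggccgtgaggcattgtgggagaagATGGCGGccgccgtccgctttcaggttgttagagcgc
Atp5f1b: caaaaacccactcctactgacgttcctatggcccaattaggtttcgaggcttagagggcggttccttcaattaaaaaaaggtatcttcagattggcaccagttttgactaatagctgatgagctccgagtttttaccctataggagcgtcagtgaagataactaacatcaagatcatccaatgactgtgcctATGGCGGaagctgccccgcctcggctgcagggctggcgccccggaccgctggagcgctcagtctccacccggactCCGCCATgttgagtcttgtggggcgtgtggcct

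Across the 3 zones, most subunit genes were lowest in IDZ. The IDZ mean was the lowest of the 3 zone means in 50 of 74 genes (67.6%), whereas this was so for 28.0% of all 14300 genes and 21.9% of all 27342 clusters. SZ was lowest in 21 (47.6% of all clusters) and RZ in 3 (30.5%). RZ had the highest mean in 44 genes, SZ in 24 and IDZ in 6. The pattern was present in each complex, as IDZ was lowest in 22 of 34 genes of complex I, 5 of 7 of complex III, 9 of 14 of complex IV and 12 of 16 of complex V. Without SZ replicate 4 it was lowest in 56 of 74 genes (75.7%, against 30.5% of all genes and 23.0% of all clusters). In complexes I, III, IV and V the numbers were then 28, 6, 8 and 12. The order of RZ and SZ at the top depended on that array. Without it SZ had the highest mean in 34 genes, RZ in 32 and IDZ in 8. Of the 14300 genes, SZ was then highest in 5059, IDZ in 5160 and RZ in 4081. Differences were moderate, and none of the 74 genes reached 2-fold between any pair of zones, a size that 3.94% of all clusters passed between SZ and IDZ, 0.918% between IDZ and RZ and 4.54% between SZ and RZ together with an adjusted p under 0.05.

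**Figure D1:**
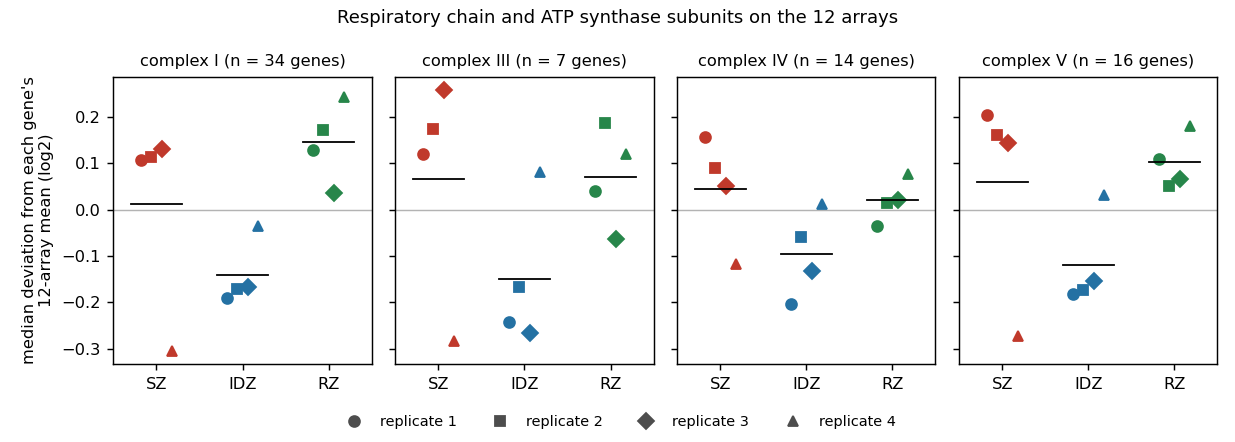
Median over the genes of a complex of the deviation from each gene's own 12-array mean (log2, vertical axis) on each array, by zone, with 1 symbol per replicate and a line at the mean of the 4 arrays. In complex I the IDZ arrays lay between -0.19 and -0.04 and the RZ arrays between 0.04 and 0.24, while SZ replicates 1 to 3 lay between 0.11 and 0.13 and SZ replicate 4 at -0.31.

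The arrays of a zone did not all behave alike. On the RZ arrays 47 to 66 of the 74 genes were above their own 12-array mean, and on SZ replicates 1 to 3 this held for 52 to 55. On IDZ replicates 1 to 3 it held for 8 to 12 genes, but on IDZ replicate 4 for 36, and on SZ replicate 4 for 13. The mean level of the 74 genes was 8.94, 8.96, 8.96 and 9.14 on the IDZ arrays and 9.23, 9.25, 9.18 and 9.32 on the RZ arrays, so that these zones did not overlap, whereas SZ replicate 4 (8.87) lay below every IDZ array. Most of these genes were bright, with only Cox6c-ps1, Cox8b and Cox8c among the dimmest clusters, and the arrays differed in spread, so the values were quantile normalized again. The means were then 8.98 to 9.14 in IDZ, 9.18 to 9.29 in RZ and 9.04 to 9.23 in SZ, with SZ replicate 4 at 9.04.

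**Figure D2:**
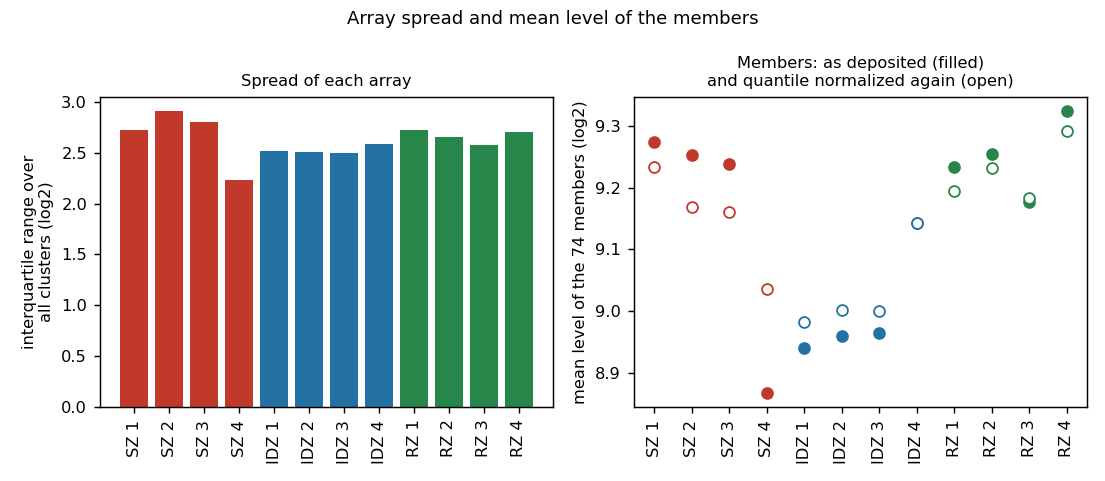
Left, interquartile range over 27342 clusters on each array (log2, bars from 0). Right, mean level of the 74 genes on each array (log2) as deposited (filled) and after quantile normalization of the 12 arrays (open). SZ replicate 4 had the narrowest range, 2.24, and its mean moved from 8.87 to 9.04, while IDZ replicate 4 remained at 9.14.

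SZ was first compared with IDZ to ask how the articular layers differed. Of the 74 genes, 19 (25.7%) were higher in SZ and 1, Ndufa6, was higher in IDZ, at an adjusted p under 0.05 in limma, the sense in which a gene is said to have passed. By complex, the shares higher in SZ were 32.4% (I), 28.6% (III), 21.4% (IV) and 18.8% (V). Those of complexes IV and V were near the share of all 14300 genes given next. Of all clusters, 11.8% were higher in SZ and 11.2% higher in IDZ, and of the 14300 genes 17.0% and 9.56%. The median difference of the 74 genes was 0.11 (log2, SZ minus IDZ), against -0.08 over all clusters and -0.03 over the 14300 genes. Of the 74 differences 52 were positive. Negative differences made up 29.7% of the 74, against 63.9% of all clusters and 54.7% of the 14300 genes. The differences that passed ran from 0.36 to 0.72, that is 1.29-fold to 1.65-fold. All 4 SZ arrays lay above all 4 IDZ arrays in 11 genes (14.9%), against 10.2% of all clusters and 14.7% of the 14300 genes, a share near that of the genes. All IDZ arrays lay above all SZ arrays in 2, Ndufa6 and Cox8b, against 12.1% of clusters and 10.6% of genes. After quantile normalization of the 12 arrays the split was 21 genes higher in SZ and 4 higher in IDZ (12.9% and 13.4% of all clusters), and with the arrays centred on the brighter clusters the median difference was 0.06. SZ replicate 4 bore on this comparison: without it 34 genes passed toward SZ and 2 toward IDZ (18.1% and 23.5% of all clusters), and the median difference was 0.21. With animal pairs as a fixed block, 9 genes passed toward SZ and 0 toward IDZ (8.65% and 6.35% of all clusters), and 13 passed without IDZ replicate 1. Within animals 5 and 6, 65 of 74 genes had a higher mean in SZ than in IDZ (median difference 0.28), and within animals 7 and 8, which gave SZ replicate 4, 30 of 74 (median difference -0.04).

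In complex I, 11 of 34 genes passed with higher levels in SZ and 1 with a higher level in IDZ, and 22 of the 34 differences were positive. These counts were 16 and 1 without SZ replicate 4. Ndufs5, an accessory subunit of the membrane arm, had the largest difference of the 74 genes between SZ and IDZ. Its levels were 9.28, 8.92, 9.08 and 8.34 in SZ and 8.05, 8.04, 8.03 and 8.60 in IDZ (replicates 1 to 4, log2). Only SZ replicate 4 lay within the IDZ range, and the difference was 0.72 ± 0.19 (SE, adjusted p = 0.0107). Ndufa9, an accessory subunit near the quinone site, measured 9.03, 9.10, 9.01 and 8.62 in SZ and 8.34, 8.13, 8.21 and 8.30 in IDZ. All SZ arrays were above all IDZ arrays, by 0.70 ± 0.11 on average (adjusted p = 0.000193). Ndufa4, named for complex I but now placed in cytochrome c oxidase, is counted with complex I throughout, by its symbol. Ndufa4 measured 10.91, 10.89, 11.10 and 10.30 in SZ and 9.84, 10.11, 10.33 and 10.42 in IDZ. SZ replicate 4 again lay among the IDZ arrays, and the difference was 0.63 ± 0.17 (adjusted p = 0.0149).

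Of the complex I subunits named Ndufv, and Ndufs1, which take part in the uptake of electrons from NADH, Ndufv1, Ndufv2 and Ndufs1 were higher in SZ. Ndufv3 did not pass (adjusted p = 0.941). Ndufv1, which binds NADH and the flavin, was 9.25 ± 0.30 in SZ and 8.78 ± 0.13 in IDZ (adjusted p = 0.0148). Its partner Ndufv2 was 10.09 ± 0.12 and 9.71 ± 0.16 (adjusted p = 0.0145), and Ndufs1, the largest iron-sulfur subunit, was 8.23 ± 0.40 and 7.76 ± 0.08 (adjusted p = 0.0349). Under 21 other fits, scalings and left-out arrays, Ndufv1, Ndufv2 and Ndufs1 failed to pass in 1, 2 and 11. The remaining complex I genes higher in SZ were Ndufb4, Ndufb9, Ndufb11, Ndufc2 and Ndufs7, with differences from 0.36 to 0.39. Ndufs7 carries the last iron-sulfur cluster before the quinone, and the other 4 are accessory subunits of the membrane arm. Ndufa6, which holds the acyl carrier protein on the matrix arm, went the other way. It measured from 8.64 to 9.16 in SZ and 9.38, 9.33, 9.25 and 9.55 in IDZ, without overlap, and was higher in IDZ by 0.40 ± 0.13 (adjusted p = 0.0355). The other 22 genes of complex I and the 3 assembly factors did not pass.

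In complex III, Uqcrb and Uqcrc1 were higher in SZ and 5 genes did not pass, and without SZ replicate 4 the number higher in SZ was 4. Uqcrb, a small subunit at the quinone pocket, measured 11.63, 11.40, 11.48 and 11.32 in SZ and 10.82, 10.60, 10.81 and 10.92 in IDZ. The zones did not overlap and differed by 0.67 ± 0.09 (adjusted p = 8.95e-05). Uqcrc1, a core subunit, measured 9.86, 9.93, 9.56 and 9.12 in SZ and 9.06, 9.03, 9.06 and 9.14 in IDZ, where SZ replicate 4 lay within the IDZ range, and differed by 0.55 ± 0.14 (adjusted p = 0.00999). Uqcrfs1, the Rieske iron-sulfur protein, was 8.68 ± 0.40 in SZ and 8.73 ± 0.11 in IDZ (adjusted p = 0.876).

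In complex IV, Cox5a, Cox6c and Cox8a were higher in SZ and 11 genes did not pass. There were 4 higher in SZ and 1 higher in IDZ without SZ replicate 4. Cox6c, a small transmembrane subunit, measured 12.09, 11.72, 11.95 and 11.71 in SZ and 11.09, 10.92, 11.42 and 11.22 in IDZ. SZ was above IDZ on every array, by 0.71 ± 0.12 (adjusted p = 0.000323). Cox5a, a matrix-side subunit, measured 10.26, 10.23, 10.15 and 9.92 in SZ and 9.58, 9.38, 9.55 and 9.60 in IDZ and differed by 0.61 ± 0.10 (adjusted p = 0.00023), also without overlap. In complex V, 3 of 16 genes were higher in SZ, and 10 of 16 without SZ replicate 4. The subunits alpha (Atp5f1a) and beta (Atp5f1b), which form the head, were higher by 0.56 ± 0.09 and 0.51 ± 0.09 (adjusted p = 0.000255 and 0.00077). Delta (Atp5f1d), in the rotating stalk, was higher by 0.55 ± 0.13 (adjusted p = 0.00471). Atp5f1a measured 10.36, 10.33, 10.17 and 10.07 in SZ and 9.73, 9.63, 9.59 and 9.74 in IDZ, and Atp5f1d 12.01, 12.26, 12.001 and 11.68 and 11.35, 11.36, 11.37 and 11.67. Neither overlapped, although the lowest SZ array and the highest IDZ array, both replicate 4, were close in Atp5f1d. Of the 20 genes that passed, 7 passed under every other fit, scaling and left-out array tried, apart from a minimum of 2-fold: Ndufa9, Uqcrb, Cox5a, Cox6c, Atp5f1a, Atp5f1b and Atp5f1d.

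IDZ was next compared with RZ, layers of the same rats that lie on opposite sides of the forming secondary ossification center. The subunit genes were higher in RZ: 13 of 74 (17.6%) were higher in RZ and 0 in IDZ, where 3.95% of all clusters were higher in RZ and 2.78% higher in IDZ, and of the 14300 genes 5.58% and 3.22%. In either direction, 39 of the 74 genes had an unadjusted p under 0.05, against 19.2% of all clusters and 22.3% of the 14300 genes. The mean was lower in IDZ in 66 of 74 genes (89.2%), against 41.7% of all clusters and 48.6% of the 14300 genes. The median difference was -0.27 (log2, IDZ minus RZ), against 0.03 over all clusters and 0.006 over the 14300 genes. All RZ arrays were above all IDZ arrays in 36 genes (48.6%), against 11.1% of all clusters and 15.6% of the 14300 genes, and the reverse held for 0, against 9.08% and 8.71%. The differences that passed ran from 0.36 to 0.67, that is 1.28-fold to 1.60-fold. In each of the 4 pairs of rats most genes were higher in RZ, namely 66, 65, 59 and 60 of 74 for animals 1 and 2, 3 and 4, 5 and 6, and 7 and 8, with median differences of 0.27, 0.30, 0.24 and 0.22.

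The number of genes that passed differed between fits. In a fit of IDZ and RZ alone 38 genes were higher in RZ and 0 in IDZ (8.91% and 6.26% of all clusters), and without SZ replicate 4, which is in neither zone but shares the estimate, 36 and 0 (8.61% and 5.75%). With animal pairs as a fixed block 6 genes were higher in RZ and 0 in IDZ (2.37% and 1.91%), and leaving out IDZ replicate 2 left 4, whereas leaving out any other single IDZ or RZ array left 6 to 14. Quantile normalization again gave 17 and 1 (4.95% and 3.80%).

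In complex I, 7 of 34 genes were higher in RZ than in IDZ, and 21 of 34 without SZ replicate 4. Without that array the numbers were 2 of 7 in complex III, 4 of 14 in complex IV and 8 of 16 in complex V, with 0 higher in IDZ in each. Ndufa4 had the largest difference between IDZ and RZ and measured 10.91, 10.90, 10.53 and 11.05 in RZ, above the IDZ arrays given before, by 0.67 ± 0.17 (adjusted p = 0.0279). Ndufa9 measured 8.71, 8.88, 8.73 and 8.77 in RZ, higher by 0.53 ± 0.11 (adjusted p = 0.00684). Ndufv2 was 10.21 ± 0.11 in RZ (adjusted p = 0.008), Ndufb9 9.86 ± 0.07 against 9.32 ± 0.19 in IDZ (adjusted p = 0.0143) and Ndufb7 8.98 ± 0.11 against 8.52 ± 0.05 (adjusted p = 0.0182). Ndufb7 is an accessory subunit on the intermembrane side. Ndufab1, the mitochondrial acyl carrier protein that is also part of complex I, measured 9.55, 9.39, 9.35 and 9.25 in IDZ and 9.75, 9.75, 9.81 and 9.90 in RZ. The RZ arrays were all above those of IDZ, by 0.42 ± 0.10 (adjusted p = 0.0229). Ndufs7 was the seventh, higher by 0.39 (adjusted p = 0.0476). Among the assembly factors Ndufaf3 was higher in RZ, at 7.91 ± 0.06 against 7.55 ± 0.07 (adjusted p = 0.0197).

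Uqcrb was the gene of complex III that passed, and it had the smallest adjusted p of the 74 genes. It measured 11.41, 11.46, 11.43 and 11.40 in RZ, closely spaced and above every IDZ array, and was 0.64 ± 0.09 above IDZ (adjusted p = 0.000573). In complex IV, Cox5a was 9.96 ± 0.07 in RZ (difference 0.43 ± 0.10, adjusted p = 0.0131), and Cox7a2, the widely expressed form of subunit 7a, measured 11.16, 11.22, 11.23 and 11.40 in RZ and 10.67, 10.68, 10.69 and 11.06 in IDZ. IDZ replicate 4 lay apart from the other IDZ arrays but below all RZ arrays, and the difference was 0.48 ± 0.13 (adjusted p = 0.0445). In complex V, Atp5f1b was 10.80 ± 0.05 in RZ (difference 0.41 ± 0.09, adjusted p = 0.0138) and Atp5f1d 11.98 ± 0.16 (difference 0.54 ± 0.13, adjusted p = 0.0173). Ndufa9, Ndufv2 and Uqcrb passed under every other fit, scaling and left-out array tried, apart from a minimum of 2-fold.

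There were 9 genes higher than IDZ in both SZ and RZ: Ndufa4, Ndufa9, Ndufb9, Ndufs7, Ndufv2, Uqcrb, Cox5a, Atp5f1b and Atp5f1d. Both comparisons use the same IDZ arrays, so a low IDZ array moves both. Between SZ and RZ these 9 genes differed by -0.17 (Ndufb9) to 0.18 (Cox5a), and none passed. Ndufs7, for example, averaged 9.30 ± 0.22 in SZ, 8.91 ± 0.07 in IDZ and 9.30 ± 0.13 in RZ. Several genes were measured by more than 1 cluster. Whether the clusters of 1 gene share probe sequences was not examined, so their agreement may not be that of separate measurements. The 3 clusters of Uqcrb gave SZ minus IDZ differences of 0.67, 0.65 and 0.66, and the 2 clusters of Cox5a gave 0.61 and 0.67. The second cluster of Ndufs5 gave 0.86 (adjusted p = 0.00704), whereas that of Ndufb4 gave 0.39 as the first did and did not pass (adjusted p = 0.0584). The second cluster of Cox7a2 was 0.47 higher in RZ than in IDZ (adjusted p = 0.0397).

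**Figure D3:**
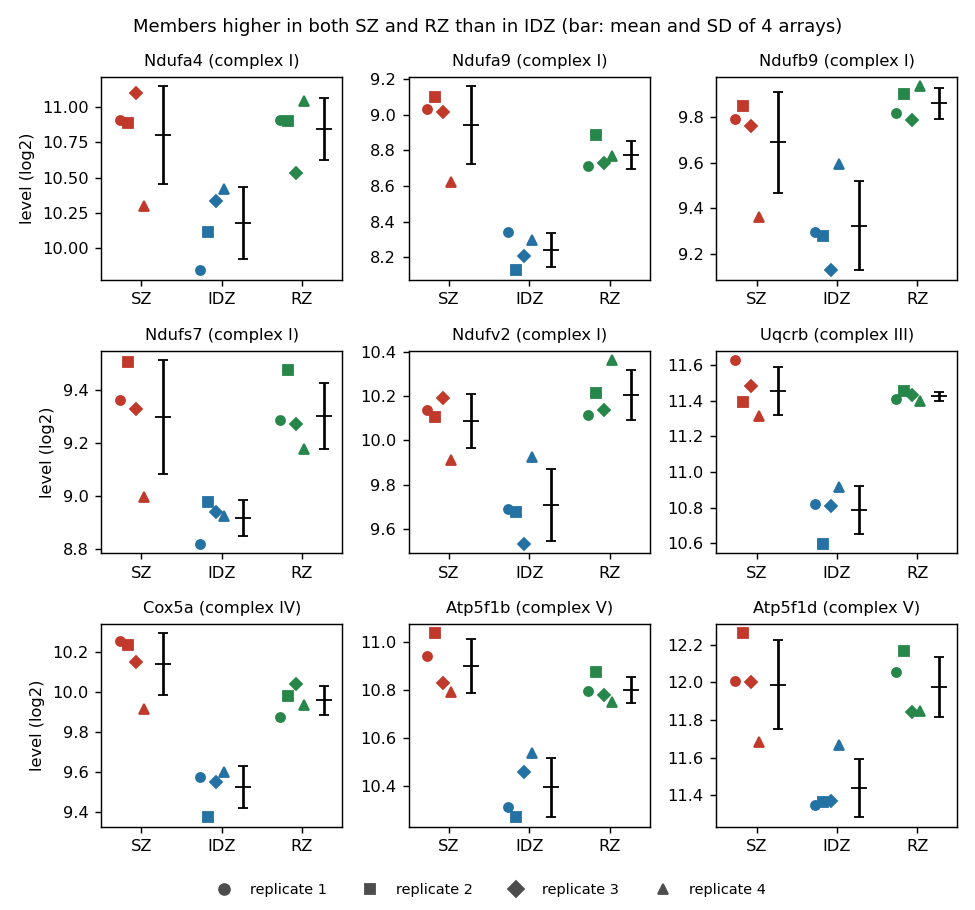
Levels (log2, vertical axes with their own ranges) of the 9 genes higher in both SZ and RZ than in IDZ, 1 symbol per array, with the mean and SD of the 4 arrays of a zone as a bar. IDZ was lowest in each panel, as in Uqcrb with 10.79 ± 0.14 in IDZ, and SZ replicate 4 was the lowest SZ array in all 9.

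SZ and RZ were then compared. The subunit genes differed less in 1 direction here: 8 of 74 (10.8%) were higher in RZ and 2 (2.70%) higher in SZ, where 11.1% of all clusters were higher in RZ and 10.0% higher in SZ, and of the 14300 genes 12.2% and 14.5%. The share higher in RZ was thus near that of all clusters. The median difference was -0.05 (log2, SZ minus RZ), against -0.03 over all clusters and -0.01 over the 14300 genes. All RZ arrays lay above all SZ arrays in 11 genes (12.3% of all clusters, 13.5% of the 14300 genes), and the reverse held in 2 (9.61% and 13.6%). Quantile normalization of the arrays gave 13 genes higher in RZ and 4 higher in SZ (13.8% and 11.0% of all clusters). Without SZ replicate 4, 9 genes were higher in RZ and 7 in SZ (15.3% and 13.5% of all clusters) and the median difference was 0.01. With animal pairs as a fixed block 3 were higher in RZ and 0 in SZ (6.95% and 7.78%) and the median difference was -0.12, and 6 passed without RZ replicate 1 or 4.

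Atp5f1a and Cox6c, the genes higher in SZ than in RZ, were also higher in SZ than in IDZ. Atp5f1a measured 9.88, 9.96, 9.90 and 9.93 in RZ, below every SZ array, by 0.32 ± 0.09 (adjusted p = 0.0176). Cox6c measured 11.49, 11.51, 11.47 and 11.44 in RZ, also below every SZ array, by 0.39 ± 0.12 (adjusted p = 0.0236). The genes higher in RZ were 5 of complex I (Ndufa6, Ndufa7, Ndufa11, Ndufab1 and Ndufs6-ps1), Ndufaf3, Uqcrq and Atp5mc1. Uqcrq, a small subunit of complex III, measured 9.51, 9.72, 9.77 and 8.93 in SZ and 10.15, 10.07, 9.93 and 10.32 in RZ, with all RZ arrays above, by 0.64 ± 0.16 (adjusted p = 0.0106). Ndufa6 measured 9.38, 9.40, 9.56 and 9.83 in RZ, higher than SZ by 0.57 ± 0.13 (adjusted p = 0.00441). Ndufab1 measured 9.53, 9.50, 9.32 and 9.15 in SZ and was lower than RZ by 0.43 ± 0.10 (adjusted p = 0.00654). Ndufa7, Ndufa11, Ndufaf3 and Ndufs6-ps1 were higher in RZ by 0.53, 0.40, 0.34 and 0.29 (adjusted p = 0.0236, 0.0413, 0.00947 and 0.0403). Ndufa6, Ndufab1 and Atp5mc1 passed under every other fit, scaling and left-out array tried, apart from a minimum of 2-fold.

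**Figure D4:**
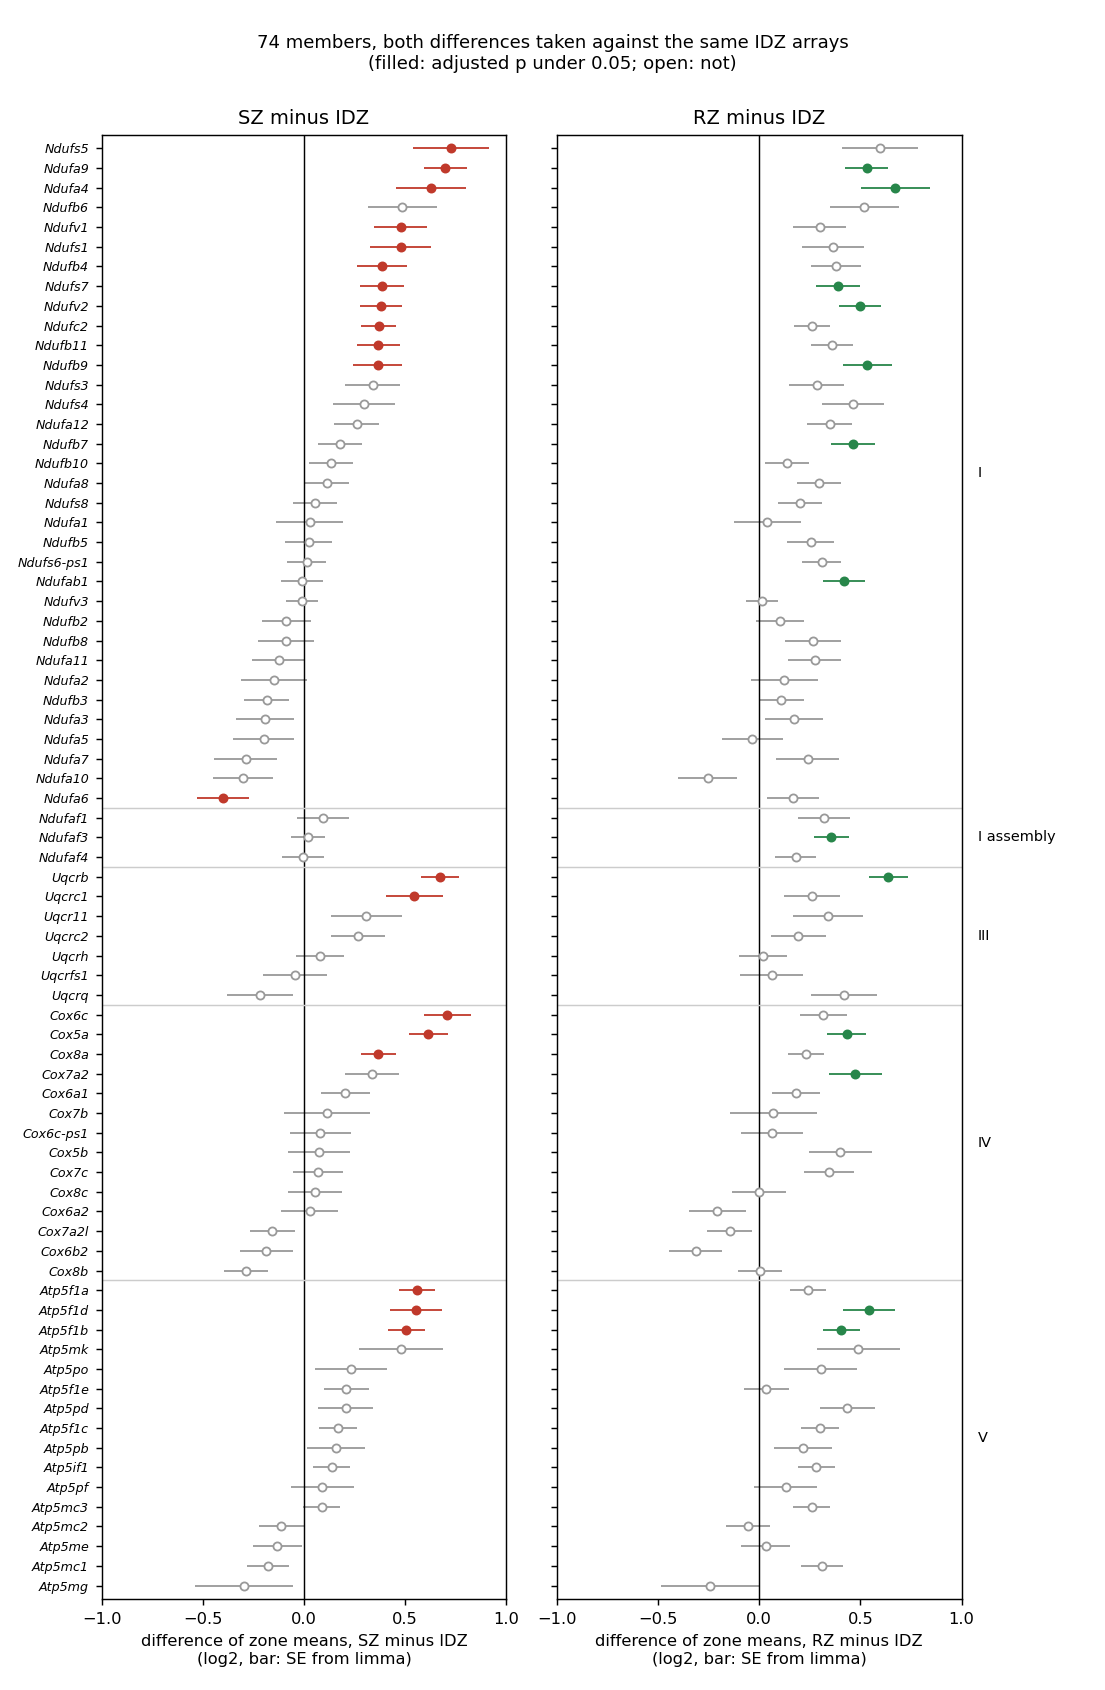
Difference of zone means for each of the 74 genes (log2, horizontal axes; bars are the SE from limma), SZ minus IDZ on the left and RZ minus IDZ on the right, ordered within each complex by the left panel. Filled points passed an adjusted p under 0.05. On the right 66 of 74 points lay above 0 and on the left 52 of 74.

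The 3 genes of the c subunit of ATP synthase, Atp5mc1, Atp5mc2 and Atp5mc3, encode the same mature protein of the rotor ring and did not all change. Atp5mc1 measured 9.41, 9.30, 9.19 and 8.96 in SZ, 9.40, 9.28, 9.39 and 9.51 in IDZ and 9.62, 9.68, 9.70 and 9.82 in RZ. RZ was above SZ on every array, by 0.49 ± 0.10 (adjusted p = 0.00257). Atp5mc2 was 11.02 ± 0.19, 11.14 ± 0.13 and 11.08 ± 0.12 in SZ, IDZ and RZ, and Atp5mc3 10.65 ± 0.16, 10.56 ± 0.07 and 10.82 ± 0.03, and neither passed in any comparison. A difference between these genes was not tested. Atp5if1, the inhibitor of ATP hydrolysis by the enzyme, was 10.73 ± 0.16, 10.59 ± 0.03 and 10.87 ± 0.07 and did not pass (adjusted p = 0.0855 between IDZ and RZ).

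Cytochrome c oxidase has tissue-restricted subunit forms, and these were compared with their widely expressed partners by the change in their difference between zones. Cox8b, the heart and muscle form of subunit 8, was dim, at 5.29 ± 0.21 in SZ, 5.57 ± 0.11 in IDZ and 5.58 ± 0.09 in RZ, and did not pass by itself. Cox8a, the widely expressed form, was 11.91 ± 0.08, 11.55 ± 0.11 and 11.78 ± 0.08 and was higher in SZ than in IDZ (adjusted p = 0.0066). The difference Cox8b minus Cox8a was lower in SZ than in IDZ by 0.65 ± 0.11 (SE, adjusted p = 0.00058) and lower in SZ than in RZ by 0.43 ± 0.11 (adjusted p = 0.0134), where it did not pass with animal pairs as a fixed block (-0.40, adjusted p = 0.0999). Cox8b lay under 6.01, the limit of the dimmest clusters, with SZ replicate 3 at 4.97 against 5.38 to 5.41 on the other SZ arrays, so these differences cannot be read as a shift from one form to the other. For subunit 4, whose genes are outside the symbol rule, Cox4i2, the oxygen-responsive form, measured 10.44, 10.23, 10.51 and 9.84 in SZ, 10.87, 11.004, 10.60 and 10.77 in IDZ and 11.04, 11.01, 10.69 and 10.92 in RZ. SZ was below every array of IDZ and RZ, by 0.56 and 0.66 (adjusted p = 0.00961 and 0.00299). Cox4i1, the widely expressed form, was 10.43 ± 0.17, 10.21 ± 0.06 and 10.50 ± 0.10 and did not pass. Cox4i2 minus Cox4i1 was lower in SZ than in IDZ by 0.78 ± 0.13 (adjusted p = 0.000285) and lower in SZ than in RZ by 0.59 ± 0.13 (adjusted p = 0.0028), and did not pass between IDZ and RZ (difference 0.19 ± 0.13, adjusted p = 0.449). Cox6a2, the muscle form of subunit 6a, was 6.99 ± 0.32, 6.96 ± 0.12 and 6.75 ± 0.16, and its difference from Cox6a1 did not pass in any comparison. The remaining forms named for the rule were Cox6b2, Cox7a2l, Cox7b and Cox8c, of which none passed in any comparison.

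Genes that work beside the subunits were counted in the same fit. For the lists that follow, the shares to set beside the counts from all 12 arrays are those of the 14300 genes. Between SZ and IDZ these were 17.0% higher in SZ and 9.56% higher in IDZ. They were 3.22% higher in IDZ and 5.58% higher in RZ between IDZ and RZ, and 14.5% higher in SZ and 12.2% higher in RZ between SZ and RZ. Counts without SZ replicate 4 need other shares, which were taken over all clusters. Between SZ and IDZ, 18.1% of clusters were then higher in SZ and 23.5% higher in IDZ. Between IDZ and RZ, 5.75% were higher in IDZ and 8.61% in RZ, and between SZ and RZ, 13.5% were higher in SZ and 15.3% in RZ. Complex II, succinate dehydrogenase, had 2 of 4 genes, Sdhc and Sdhd, higher in SZ than in IDZ, and all 4 without SZ replicate 4. Its membrane anchor Sdhc measured 10.99, 11.04, 10.83 and 10.66 in SZ, 10.04, 9.99, 10.05 and 10.38 in IDZ and 10.56, 10.55, 10.42 and 10.48 in RZ, and IDZ was below SZ by 0.76 ± 0.11 (adjusted p = 0.000103) and below RZ by 0.39 ± 0.11 (adjusted p = 0.0467). Cycs, the electron carrier cytochrome c, was 10.57 ± 0.29, 10.19 ± 0.11 and 10.62 ± 0.04 in SZ, IDZ and RZ, and was lower in IDZ than in SZ (adjusted p = 0.0348) and RZ (adjusted p = 0.0458). Among 6 carriers and porins that exchange adenine nucleotides, phosphate and metabolites, 3 were higher in SZ than in IDZ and 4 were higher in RZ than in IDZ, and without SZ replicate 4 both numbers were 4. Slc25a5, an adenine nucleotide translocase, had the largest difference, measuring 11.06, 11.14, 10.85 and 10.75 in SZ, 9.58, 9.34, 9.61 and 9.61 in IDZ and 10.41, 10.48, 10.34 and 10.31 in RZ. No zones overlapped, and SZ was 1.42 ± 0.10 above IDZ, that is 2.67-fold (adjusted p = 1.52e-07), while RZ was 0.85 ± 0.10 above IDZ (adjusted p = 9.83e-05). The phosphate carrier Slc25a3 and the porin Vdac3 were also higher in both SZ (by 0.42 and 0.47) and RZ (by 0.37 and 0.48), and the porin Vdac2 was higher in RZ (by 0.48).

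Of 13 genes of pyruvate dehydrogenase and the citric acid cycle, 7 were higher in SZ than in IDZ and 0 higher in IDZ. Between IDZ and RZ all 13 means were lower in IDZ, and 1 gene, Idh3a, passed. Without SZ replicate 4, 10 were higher in SZ than in IDZ and 5 higher in RZ than in IDZ. Ogdh, of the oxoglutarate dehydrogenase complex, and Idh3b, of isocitrate dehydrogenase, were higher in SZ than in IDZ by 0.80 ± 0.13 and 0.67 ± 0.11 (adjusted p = 0.000282 and 0.000278). Both were also higher in SZ than in RZ, by 0.45 and 0.44 (adjusted p = 0.0209 and 0.00801). Pdhb, of pyruvate dehydrogenase, was lower in SZ than in RZ by 0.63 ± 0.12 (adjusted p = 0.000752). No other gene of this list passed between SZ and RZ, where 9 of 13 means were higher in SZ (median difference 0.13). Leaving out SZ replicate 4 gave 6 higher in SZ and 1 higher in RZ. Of 67 mitochondrial ribosomal protein genes, 3 were higher in SZ (Mrpl10, Mrpl35 and Mrpl46) and 4 higher in IDZ (Mrpl17, Mrps9, Mrps18b and Mrps31), shares below those of all clusters. Without SZ replicate 4, 13 were higher in SZ and 3 higher in IDZ. Against RZ, 63 of 67 means were lower in IDZ and 8 passed, or 19 without SZ replicate 4, and 14 were lower in SZ, or 11 without it. The largest was Mrpl21, which was higher in RZ than in IDZ by 0.72 ± 0.13 (adjusted p = 0.00225). Of 22 genes of mitochondrial protein import, 2 were higher in SZ (Tomm22 and Tomm40l) and 2 higher in IDZ (Tomm20 and Timm10b) when these were compared, and 2 were higher in RZ than in IDZ (Timm22 and Grpel1). These numbers were 7, 3 and 5 without SZ replicate 4. Between SZ and RZ, 7 of the 22 import genes (31.8%) were higher in RZ and 1 higher in SZ (median difference -0.19, SZ minus RZ), or 7 and 2 without SZ replicate 4. Tomm20, a receptor of the outer membrane, was lower in SZ than in IDZ and RZ by 0.71 and 0.75 (adjusted p = 0.00101 and 0.000581).

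Of 17 regulators of mitochondrial biogenesis, 1 was higher in SZ and 1 higher in IDZ when these zones were compared, 4 passed between SZ and RZ, 2 in each direction, and 0 passed between IDZ and RZ, where 1 had an unadjusted p under 0.05. When SZ replicate 4 was left out, 3 passed toward SZ and 1 toward IDZ, 3 toward SZ and 2 toward RZ, and 1 was higher in RZ than in IDZ. Gabpa, which encodes the DNA-binding subunit of GABP, was higher in SZ than in IDZ by 0.46 ± 0.15 (adjusted p = 0.0322), and Polg2, an accessory subunit of the mitochondrial DNA polymerase, was lower by 0.46 ± 0.11 (adjusted p = 0.00555). Between SZ and RZ, Ppargc1a and Ppargc1b, coactivators that drive mitochondrial biogenesis, were higher in SZ by 0.35 ± 0.11 and 0.33 ± 0.10 (adjusted p = 0.0396 and 0.0213). Ppargc1a was dim, under 6.01, the limit of the dimmest clusters, on every array. It ran from 4.598 to 4.985 in SZ and from 4.418 to 4.616 in RZ, with overlap. Its difference therefore cannot be read as a raised level in SZ. Polg2 and Twnk, the mitochondrial helicase, were higher in RZ by 0.41 and 0.38. Of 11 assembly genes of cytochrome c oxidase, 0 were higher in SZ and 2, Cox11 and Cox17, were higher in IDZ, by 0.39 and 0.37 (adjusted p = 0.0295 and 0.0118), and without SZ replicate 4 these numbers were 1 and 2. Between SZ and RZ, 3 of the 11 (27.3%) were higher in RZ and 0 in SZ, or 3 and 1 without that array. In the fit of all arrays Cox18, Cox15 and Cox17 were higher in RZ by 0.49, 0.33 and 0.29 (adjusted p = 0.00175, 0.0377 and 0.0469). Between IDZ and RZ 0 passed, or 1 toward RZ without that array.

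Glycolysis genes differed from the subunit genes in the zones they separated. Of 19 genes of glycolysis and lactate export, among them Pdk1 and Bnip3, which are known for their response to low oxygen and are not glycolytic enzymes, 13 were higher in IDZ than in SZ and 14 higher in RZ than in SZ, 1 (Pfkp) and 2 (Pfkp and Gpi) went the other way, and 0 passed between IDZ and RZ, where 1 had an unadjusted p under 0.05. Aldoc, an aldolase, measured 7.93, 7.57, 8.01 and 7.48 in SZ, 9.16, 9.22, 9.16 and 9.42 in IDZ and 9.31, 9.40, 9.17 and 9.26 in RZ. SZ lay below both other zones on every array, by 1.50 ± 0.12 against IDZ (adjusted p = 3.56e-07), and IDZ and RZ overlapped. Hk2, a hexokinase, Slc2a1, a glucose transporter, and Slc16a3, a lactate transporter, were lower in SZ than in IDZ by 1.24, 1.02 and 0.98 (adjusted p = 1.15e-06, 0.000622 and 8.56e-05). Without SZ replicate 4, 14 of the 19 passed toward IDZ and 2 toward SZ, 14 were higher in RZ than in SZ, and 1 was higher in RZ than in IDZ.

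**Figure D5:**
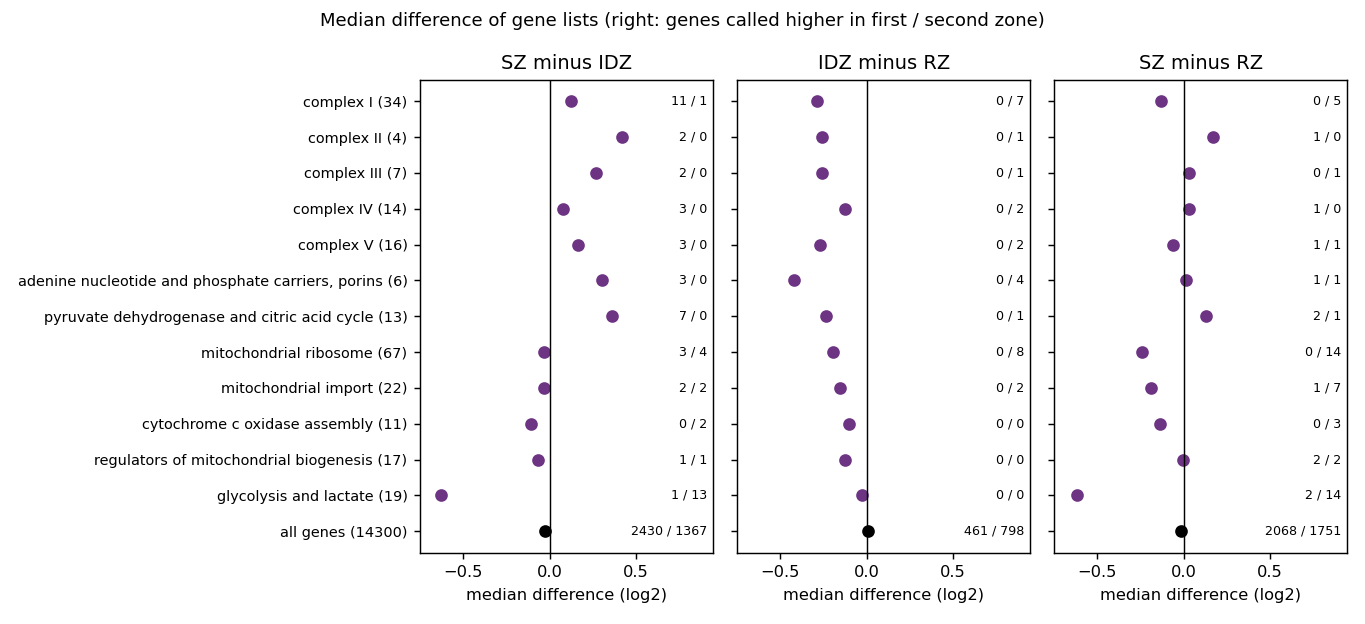
Median difference of zone means over the genes of each list (log2, horizontal axes), with the number of genes in brackets and, at the right of each panel, the numbers higher in the first and in the second zone named (adjusted p under 0.05). The 4 complexes lay at 0.08 to 0.27 for SZ minus IDZ and at -0.29 to -0.13 for IDZ minus RZ, and glycolysis and lactate at -0.63 and -0.03.

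Markers of other cell types differed between SZ and the other zones. All 16 macrophage markers and 9 of 10 endothelial markers were higher in SZ than in IDZ, and their mean levels ran from 8.27 to 9.15 and 8.36 to 8.91 in SZ against 6.69 to 6.80 and 6.33 to 6.74 in IDZ and 6.40 to 7.00 and 6.20 to 6.42 in RZ. Osteoclast markers (4 of 6) and adipocyte markers (5 of 9) were also higher in SZ, and 11 of 12 chondrocyte markers were lower, with mean levels of 10.95 to 11.30 in SZ and 12.06 to 12.12 in IDZ. These 5 counts were unchanged without SZ replicate 4. Their part in the SZ differences of the subunit genes was not tested. Between IDZ and RZ, 0 of the macrophage, endothelial, osteoclast, adipocyte and chondrocyte markers passed, although all 10 endothelial means were higher in IDZ (median difference 0.30). Without SZ replicate 4, 2 endothelial, 1 adipocyte and 1 chondrocyte marker passed toward IDZ and 1 osteoclast marker toward RZ. In the fit of all arrays 3 of 6 markers of hypertrophy and mineralization were higher in RZ (Alpl by 1.59, Ibsp by 1.55 and Runx2 by 1.24). Of 26 muscle markers 2 were higher in RZ (Tnni2 by 2.75 and Des by 0.85) and 1, Tnnt3, higher in IDZ. Most muscle means leaned toward IDZ, with 21 of 26 higher there (median difference 0.10, IDZ minus RZ). The 8 erythroid markers all had a higher mean in RZ, by a median of 0.67, and 0 passed, with mean levels of 7.25 to 8.35 on the IDZ arrays, 7.24 to 9.17 on the RZ arrays and 7.01 to 8.82 on the SZ arrays. The part of these in the IDZ and RZ differences was not tested.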

How the data were processed

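Per the labels and the methods, the authors summarized the 12 arrays by robust multi-array average in Partek 6.6 (background adjustment, quantile normalization, median polish) and deposited log2 values, which were used without further scaling. Probe intensities were not processed again. Of 27342 clusters, 15068 carried 1 symbol in the platform annotation, 323 several and 11951 none. All 27342 entered the fit.

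A model holding a mean for each zone was fitted to the 12 arrays with limma 3.58.1 under R 4.3.3, with moderated variances and p adjusted by Benjamini-Hochberg over all clusters, with 0.05 as threshold. The fit was tested on simulated data. Python 3.11.15 (pandas 2.3.3, matplotlib 3.10.9) served for tables and figures. IDZ and RZ samples of 1 number share rats by the labels. The departures of such a pair from its zone means had correlations of 0.02, 0.02, 0.03 and 0.21 (consensus -0.14 within animal pairs), so the block was an alternative. Where p-values rest on separate samples of shared rats, they measure the spread between these samples. The number of arrays limits the precision.

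Members and gene lists were chosen with earlier results of these data known. The genes named were, per comparison and direction, up to 10 members that passed with the largest differences, besides subunit forms, core subunits and up to 4 genes per list. Other genes named with a count of 5 or fewer, and Ndufb4, Ndufb11, Ndufc2 and Ndufs7, were named after their values were seen. Marker and pathway genes without a cluster of their own symbol were not analysed here. Alternatives were other scalings, variance models, fits of 2 zones, animal blocks, no dim clusters, other member sets, a 2-fold minimum and each array left out. Leaving out pseudogene symbols, and counting lowest means, complexes and lists without SZ replicate 4, were added after the data were seen.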

Additional observations from a re-analysis of the deposited data

Results flagged for a closer look

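An array was singled out where its gap to the nearest array of its zone, as a share of the range of the 4, exceeded Dixon's critical value. Of 126 groups of 4 values tested (means of the complexes, and single genes), 15 had such an array, where chance gives about 1 in 20. SZ replicate 4 accounted for 5 and IDZ replicate 4 for 6.

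SZ replicate 4 was low for the mean of all 74 genes (8.87, others 9.24 to 9.27), complex I (8.65, others 9.08 to 9.09), complex III (9.43, others 9.91 to 10.01), complex V (9.44, others 9.86 to 9.94) and Ndufa7 (8.44, others 9.03 to 9.11). IDZ replicate 4 was high for the mean of all 74 genes (9.14, others 8.94 to 8.96), complex I (8.95, others 8.78 to 8.79), complex V (9.79, others 9.55 to 9.57), Atp5f1d (11.67, others 11.35 to 11.37), Cox7a2 (11.06, others 10.67 to 10.69) and Ndufs5 (8.60, others 8.03 to 8.05). Those arrays come from animal 8 and from animals 7 and 8, and they moved in opposite directions.

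Single genes stood apart on other arrays. Cox8b was low on SZ replicate 3 (4.97, others 5.38 to 5.41), and Cox8c was high on RZ replicate 3 (6.02, others 5.53 to 5.58). On IDZ replicate 1, Ndufa7 was low (8.84, others 9.31) and Ndufs6-ps1 was high (9.02, others 8.79 to 8.82).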

How the results depend on the processing

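Directions of the genes that passed did not reverse under any setting run. The median difference between SZ and IDZ was 0.06 instead of 0.11 with arrays centred on the brighter clusters, and that between SZ and RZ -0.12 instead of -0.05 with the fixed animal block. With animal pairs as a fixed replicate block, 9 genes passed between SZ and IDZ instead of 20, 6 instead of 13 between IDZ and RZ and 3 instead of 10 between SZ and RZ, and with the pairs as a random block 19, 11 and 10. Leaving out 1 array gave 13 to 36 genes between SZ and IDZ (13 without IDZ replicate 1, 36 without SZ replicate 4), 4 to 36 between IDZ and RZ (7, 4 and 6 without IDZ replicates 1, 2 and 3, 6, 6 and 8 without RZ replicates 1, 2 and 4, 36 without SZ replicate 4) and 6 to 16 between SZ and RZ (6 without RZ replicate 1 or 4, 16 without SZ replicate 4). The IDZ and RZ fit alone gave 38. Quantile normalization of the 12 arrays again gave 25, 18 and 17 in the order of these comparisons. A 2-fold minimum left 0 in each comparison. The median differences over left-out arrays ran from 0.09 to 0.21, -0.30 to -0.24 and -0.13 to 0.01. The other settings kept each count within 1.5 times.

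Among subunit forms, Cox8b minus Cox8a between SZ and RZ was -0.40 with the fixed block (adjusted p = 0.0999) and -0.43 without it (adjusted p = 0.0134). Cox6a2 minus Cox6a1 between SZ and IDZ, which did not pass, was -0.18 over all arrays and ran from -0.35 without SZ replicate 4 to 0.0083 without SZ replicate 2. All 74 symbols equalled the current ones, so updating them could not change a value. The causes of these changes were not tested.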
